A study of Drosophila melanogaster with 36 samples.

Results

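The homeotic genes of Drosophila lie in a pair of clusters on chromosome arm 3R, the Antennapedia complex and the bithorax complex, and their folding was examined here in Hi-C matrices of cultured ovarian somatic cells (OSCs). Hi-C ligates crosslinked restriction fragments and so counts how often pieces of chromatin lie near each other. The Antennapedia complex was taken as the 9 bins of 40 kb from 2480001 to 2840000 of 3R and the bithorax complex as the 9 bins from 12480001 to 12840000, in the dm3 build. Of the 4432753 bin pairs of a matrix, 243951 lie within 3R, and 12411 of these have at least 1 bin in a complex. Those 12411 pairs comprise 45 inside each complex, of which 36 join different bins, 81 between the complexes, and 12240 that join a complex bin to another bin of 3R. All 18 bins of the complexes were kept in all 9 matrices, and between 11017 and 12007 of the 12411 pairs held a value above 0 in a matrix. The members are defined by position alone, without reference to any measured contact.

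Homeotic genes encode transcription factors that give segments their identity along the body axis, and their order on the chromosome follows the order of the segments they specify. In the RefSeq annotation of the Release 6 assembly, which was used for names and order alone, the Antennapedia complex runs from lab through pb, Dfd and Scr to Antp, and the bithorax complex from Ubx through abd-A to Abd-B. These spans are 337802 and 315614 bases long, both shorter than the 360000 bases of 9 bins. By this order the Antp and Abd-B genes lie toward the high-coordinate ends. Gene positions in dm3 were not read, so the edges of the bins need not be the edges of the gene spans. In cells where they are silent, the complexes are textbook targets of Polycomb group proteins, which deposit H3K27me3 and compact the locus, and Polycomb-bound loci are known to meet over long distances in the nucleus. The proteins depleted in this study belong to another silencing system. Piwi with its piRNAs, and its partner Nxf2, silence transposons co-transcriptionally, Egg is the H3K9 methyltransferase also called Eggless, HP1a binds H3K9me3, and H1 is the linker histone that sits on nucleosomes and packs them.

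OSCs were treated with siRNAs against Piwi, Nxf2, H1, Egg or HP1a (named by the target with KD), and with EGFP siRNAs as Control-KD. HP1a-KD and the Control-KD of its series were both labelled as 2 days. The labels of the other Hi-C samples give no duration, so comparisons of these with the HP1a-series Control-KD join unlike labels. There were 4 Control-KD matrices, 1 each for the Piwi, Nxf2 and HP1a series and 1 shared by H1-KD and Egg-KD. The authors merged 2 replicates into each matrix before deposit, so the variation among replicates is unknown and no test was run. Each KD was instead compared with its Control-KD, and the 6 pairwise differences among the Control-KD matrices served as the measure of variation. Their root mean square is called the control-pair spread. The expected contact of a bin pair is the mean of all 3R pairs at the same separation, and enrichment below is the log2 of observed over expected contact. Contacts recovered from the corrected values amounted to between 25463370 in H1-KD and 73205693 in Piwi-KD for a whole matrix, and the counting error quoted with a difference covers counting error only.

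Chromatin of the bithorax complex was in contact with itself far more than an average stretch of 3R, and that of the Antennapedia complex somewhat more. The 36 bithorax pairs had a mean contact signal of 2060 in Piwi-KD and 2051 in its Control-KD, against an arm mean of 1483 and 1466 at the same separations. This gives an enrichment of 0.47 in Piwi-KD and 0.48 in Control-KD. Enrichment inside the bithorax complex was 0.55 in Nxf2-KD and 0.54 in its Control-KD, 0.39 in H1-KD and 0.51 in Egg-KD beside 0.50 in the Control-KD they share, and 0.46 in HP1a-KD beside 0.49 in Control-KD. Among all windows of 9 kept bins of 3R, between 2 and 7 of 663 or 681 windows exceeded the bithorax complex in a Control-KD matrix, and 18 of 681 did so in H1-KD. The Antennapedia complex was less set apart. Its enrichment came to 0.35 in Piwi-KD and 0.32 in Control-KD, 0.29 in Nxf2-KD and 0.22 in Control-KD, 0.21 in H1-KD and 0.29 in Egg-KD beside 0.26 in Control-KD, and 0.27 in HP1a-KD beside 0.26 in Control-KD. From 51 of 663 to 139 of 681 windows of 3R exceeded it in the Control-KD matrices. In every matrix, the bithorax complex was therefore the more enriched of the 2.

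**Figure D1:**
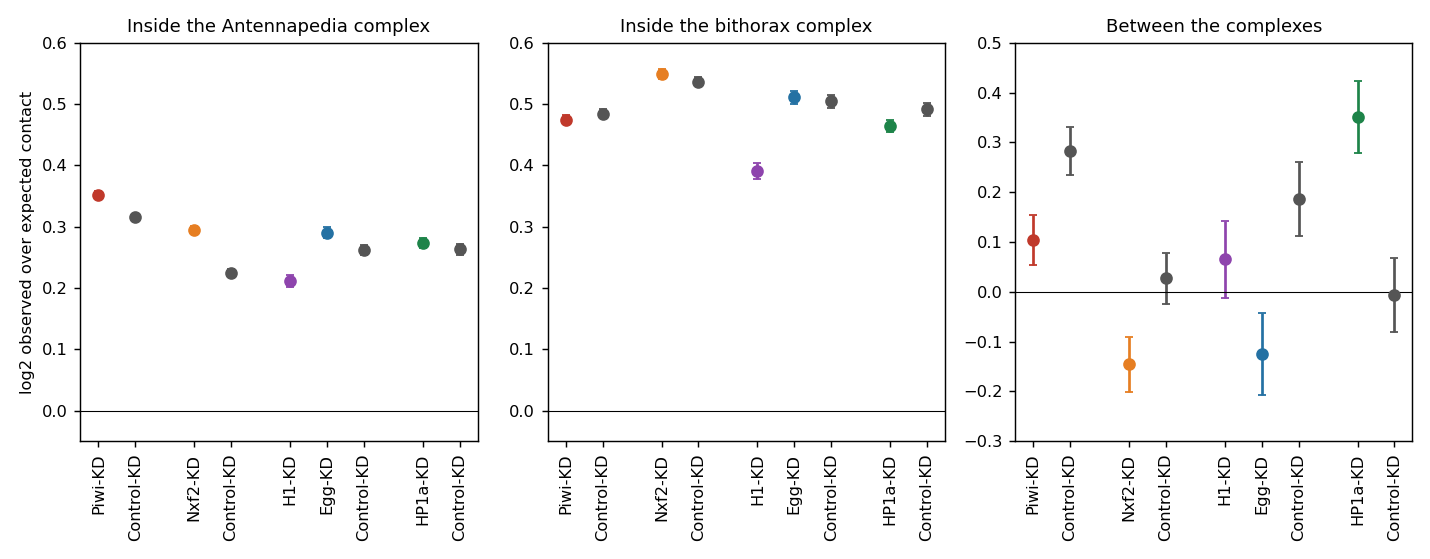
Log2 observed over expected contact inside the Antennapedia complex (36 bin pairs), inside the bithorax complex (36 bin pairs) and between them (81 bin pairs) in each of the 9 matrices, with each KD left of the Control-KD of its series and bars for the counting error of recovered contacts. H1-KD at 0.39 is the lowest matrix inside the bithorax complex, while the matrices between the complexes spread from -0.15 to 0.35 with wide counting errors.

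The pair of complexes also differed in how contact changed with distance along the locus. Inside the bithorax complex, enrichment grew with separation up to 240 kb, and in the Control-KD matrices it lay between 0.11 and 0.22 at 40 kb, between 0.83 and 0.90 at 120 kb, and between 1.16 and 1.27 at 240 kb. For the single pair of outermost bins, 320 kb apart, it was lower again, between 0.71 and 0.90, though still above that of neighbouring bins. Inside the Antennapedia complex no rise of that size was seen. The Control-KD matrices lay between 0.26 and 0.30 at 40 kb, between 0.076 and 0.37 at 240 kb and between 0.097 and 0.44 at 280 kb. The single pair at 320 kb reached 0.26 to 0.65. In Piwi-KD, enrichment was 0.27 at 40 kb and 0.62 at 280 kb, beside 0.26 and 0.39 in its Control-KD.

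Upon H1-KD, contacts across the bithorax complex were fewer relative to the arm. Enrichment inside the complex was 0.39 in H1-KD and 0.50 in Control-KD, a difference of -0.11 with a counting error of 0.017, while Control-KD matrices differed by at most 0.053 and had a control-pair spread of 0.033. The difference was concentrated in distant pairs. Neighbouring bins, 40 kb apart, had an enrichment of 0.14 in H1-KD and 0.13 in Control-KD, and their difference of 0.0066 was within the counting error of 0.025. At 120 kb the difference was -0.21, at 200 kb -0.35, and at 240 kb -0.42, with counting errors of 0.046, 0.069 and 0.080. The largest control-pair differences at these 3 separations were 0.061, 0.052 and 0.11, so each drop was larger than any difference among Control-KD matrices. At 240 kb the mean contact signal was 252 in H1-KD and 339 in Control-KD, from 541 recovered contacts in H1-KD and 828 in Control-KD.

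Summed over blocks of bins, the drop was larger between the ends of the bithorax complex than within either end. Between the 4 low bins, on the Ubx side, and the 4 high bins, on the Abd-B side, the mean signal of the 16 pairs was 340 in H1-KD and 434 in Control-KD, which gives an enrichment of 0.67 in H1-KD and 0.97 in Control-KD. This difference of -0.29 had a counting error of 0.035, beside a largest control-pair difference of 0.032. The 4 low bins among themselves had 0.50 in H1-KD and 0.54 in Control-KD, and the 4 high bins 0.025 in H1-KD and 0.058 in Control-KD, both within the control-pair spreads of 0.071 and 0.042. Single pairs within an end went both ways. The bins starting at 12480001 and 12600001 changed by -0.24 beside a largest control pair of 0.046, and those at 12560001 and 12600001 by 0.078 beside 0.22. At the high end, the bins starting at 12760001 and 12800001 changed by -0.154 beside 0.136. Pairs between the ends are also farther apart, so place and separation cannot be told apart. For the ends with each other, the other knockdowns gave differences of -0.032 in Piwi-KD, -0.024 in Nxf2-KD, 0.0099 in Egg-KD and -0.022 in HP1a-KD. These 4 were no larger than the largest control-pair difference. The low and high bins were divided after the contacts of H1-KD had been seen.

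**Figure D2:**
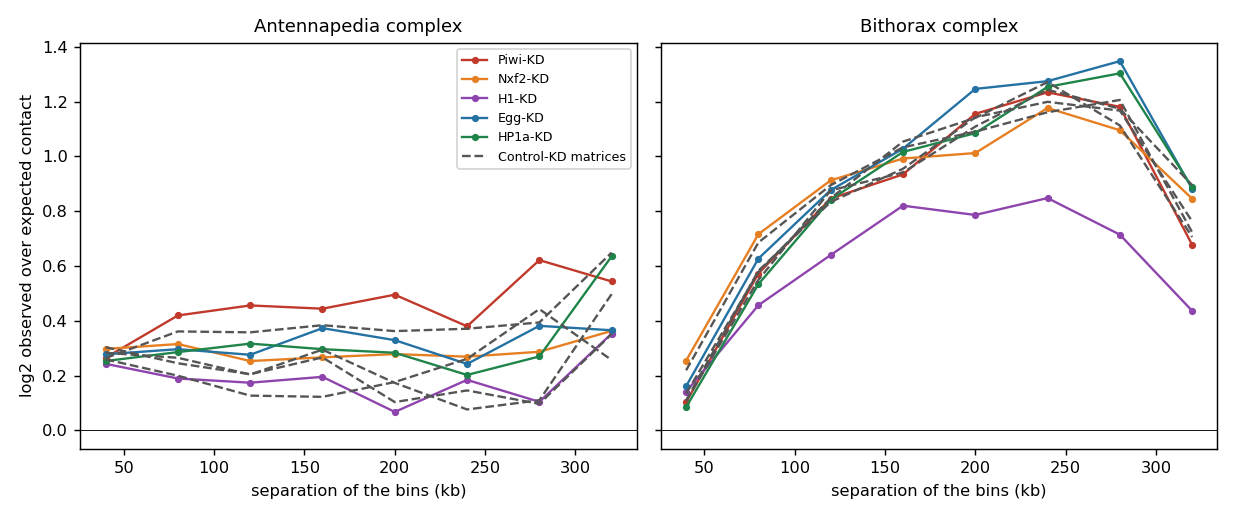
Log2 observed over expected contact of bin pairs inside the Antennapedia complex (left) and the bithorax complex (right) against the separation of the bins in kb, with the 5 KD matrices as coloured lines and the 4 Control-KD matrices as dashed lines. In the bithorax complex, H1-KD departs from the other 8 matrices from 80 kb on and reaches 0.85 at 240 kb, beside 1.27 in its Control-KD.

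The size of the H1-KD difference depended on the scale of the contacts. In contacts recovered before ICE, the difference over the whole bithorax complex was -0.038, no larger than the control-pair spread of 0.049 on that scale, and the difference between its ends was -0.19, where control pairs reached 0.083 and had a spread of 0.052. On the recovered scale Piwi-KD also passed the largest control pair between the ends, with -0.108. On deposited values the H1-KD differences were -0.22 and -0.35. H1-KD had weaker contrast along all of 3R as well. The SD of enrichment over windows of 9 bins was 0.21 in H1-KD and 0.24 in Control-KD, and the change of the bithorax complex was exceeded downward in 21 of 681 windows. For contacts between the ends of a window, 16 of 681 windows had a larger drop in H1-KD than the bithorax complex. HP1a-KD had a like contrast, with an SD of 0.20 beside 0.25 in Control-KD, and its bithorax difference was -0.029, within the control-pair spread. The part of this arm-wide change in the H1-KD result was not tested.

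**Figure D3:**
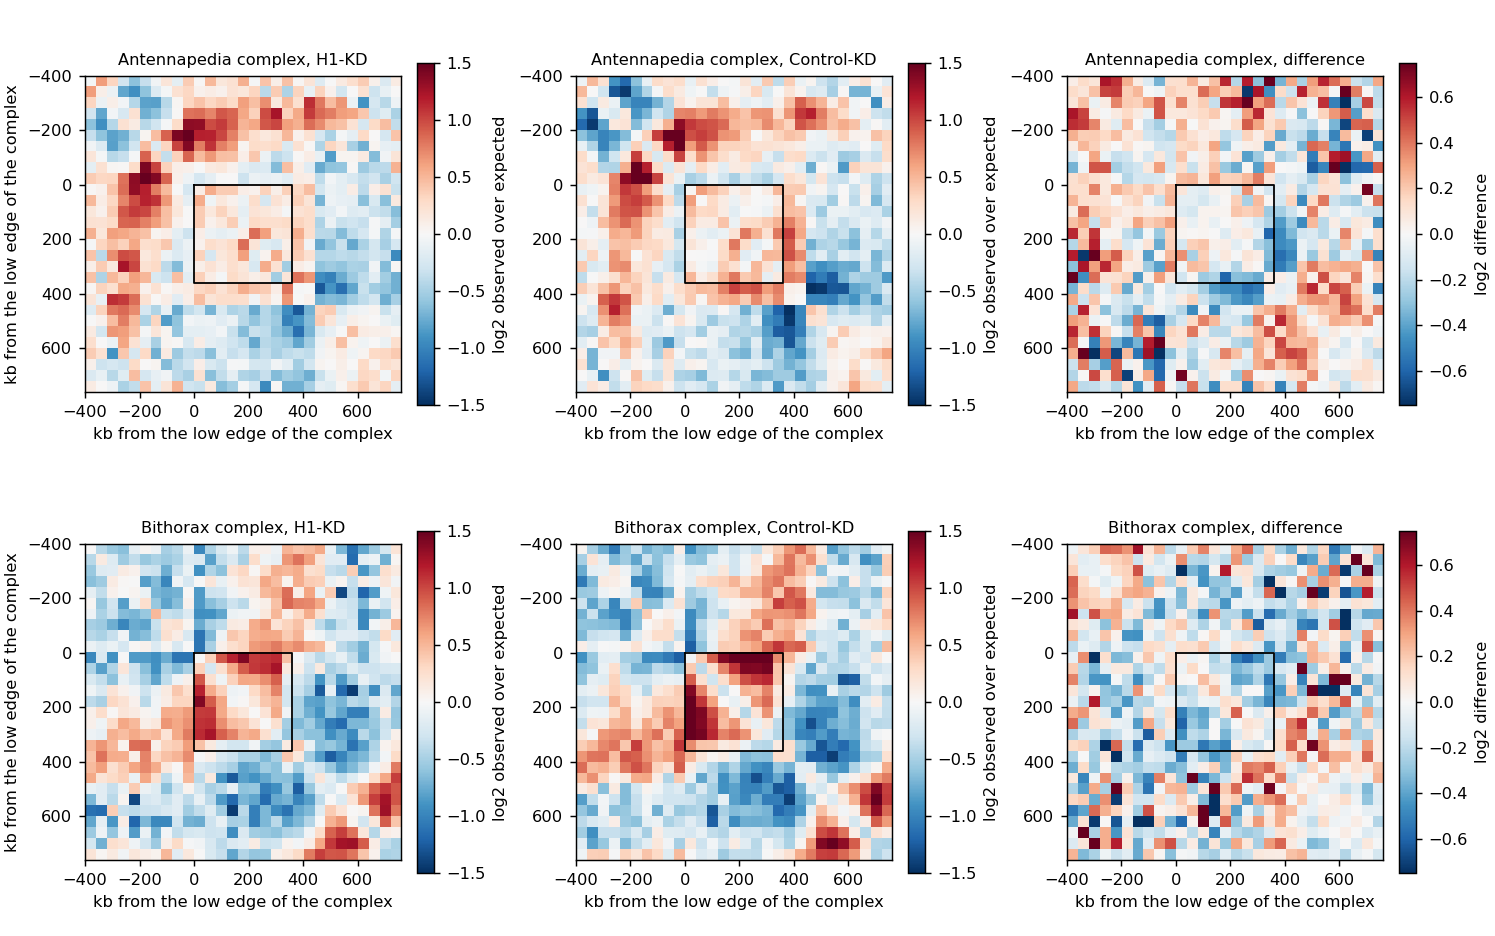
Contact maps of H1-KD (left), the Control-KD that H1-KD and Egg-KD share (middle) and their log2 difference (right) around the Antennapedia complex (upper) and the bithorax complex (lower), where both axes give kb from the low edge of the complex and the black square marks its 9 bins. The corner of the bithorax square, where its ends meet, has an enrichment of 0.67 in H1-KD beside 0.97 in Control-KD for 4 by 4 bins.

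Inside the bithorax complex, the other knockdowns differed from Control-KD by -0.010 in Piwi-KD, 0.012 in Nxf2-KD, 0.0067 in Egg-KD and -0.029 in HP1a-KD, all smaller than the control-pair spread of 0.033. In recovered contacts Piwi-KD gave -0.094 beside a largest control pair of 0.075. With equal within-arm totals HP1a-KD gave 0.123 beside 0.088. Inside the Antennapedia complex, the differences were 0.037 in Piwi-KD, 0.068 in Nxf2-KD, 0.028 for Egg-KD, -0.051 for H1-KD and 0.0084 for HP1a-KD. None of these 5 values exceeded the largest control-pair difference of 0.089. With 7 bins per complex, Nxf2-KD at 0.075 and Egg-KD at 0.046 exceeded the largest control pair of 0.042. With equal within-arm totals, H1-KD at -0.158 and HP1a-KD at 0.161 exceeded 0.132. The Control-KD matrices themselves differed more among the 4 high bins of the Antennapedia complex, with a control-pair spread of 0.10, and between its low and high bins, with 0.12, than among the 4 low bins, with 0.031.

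Few single bin pairs inside the complexes changed by 0.322 or more on the log2 scale of observed over expected contact, except in the bithorax complex of H1-KD. In the bithorax complex of H1-KD, 10 of 36 pairs (27.8%) were lower by that much and 0 were higher, while over all 3R pairs at 40 to 320 kb 6.72% were lower and 10.7% higher. In the Antennapedia complex of H1-KD, 3 of 36 pairs (8.33%) were lower, near the share of 3R, and 1 was higher, below the share of 3R. In Piwi-KD, 0 pairs of either complex passed in either direction, beside 3.8% of 3R pairs lower and 1.78% higher. In Nxf2-KD, 1 pair of the Antennapedia complex was higher, beside 2.77% of 3R pairs higher and 2.87% lower. In Egg-KD, 1 pair of each complex was higher, beside 5.75% of 3R pairs higher and 8.41% lower. In HP1a-KD, 1 pair of the Antennapedia complex was higher, beside 4.88% of 3R pairs higher and 8.3% lower. Apart from these, 0 pairs passed. Among the 6 control pairs, 0 bithorax pairs passed in each, and up to 5 Antennapedia pairs did.

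In the Antennapedia complex of H1-KD, the 3 lower pairs all contained its last bin, from 2800001 to 2840000. The largest drop joined it to the bin from 2640001 to 2680000, with a contact signal of 276 in H1-KD and 434 in Control-KD, from 212 recovered contacts in H1-KD and 373 in Control-KD. This difference of -0.60 compares with a largest control-pair difference of 0.48 for the same pair. The pair of the last bin with the bin starting at 2720001 changed by -0.332, within its largest control pair of 0.336. In the bithorax complex, the largest drop of H1-KD joined the bins from 12480001 to 12520000 and from 12720001 to 12760000, with a signal of 297 in H1-KD and 452 in Control-KD and a difference of -0.60, beside 0.25 for the largest control pair. Some pairs went one way in all 5 knockdowns. There were 6 in the Antennapedia complex, all higher, and 2 in the bithorax complex, of which 1 was lower and 1 higher. The share of all 3R pairs that did so is not given here, so these counts cannot be set against the arm. The Antennapedia pair with the largest mean rise joined the bins starting at 2560001 and 2760001, by a mean of 0.22, with rises of 0.25 in Piwi-KD, 0.12 in Nxf2-KD, 0.27 in Egg-KD, 0.21 in H1-KD and 0.24 in HP1a-KD, while control pairs reached 0.25 and had a spread of 0.20. The second, between the bins starting at 2480001 and 2720001, had a mean rise of 0.18 and a control-pair spread of 0.23. In the bithorax complex the pair lower in all 5 joined the bins starting at 12560001 and 12680001, with a mean of -0.12 beside a spread of 0.13, and the pair higher in all 5 joined those starting at 12480001 and 12560001, with 0.085 beside 0.18. Except for the first Antennapedia pair, these means were smaller than the control-pair spread. Another Antennapedia pair, picked after its values were seen, joined the bins starting at 2560001 and 2720001, and its mean rise of 0.17 exceeded both its spread of 0.084 and its largest control pair of 0.14.

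Summed contacts at 40 to 400 kb per bin, taken relative to the 3R median, located the changes. In H1-KD all 9 bithorax bins were lower, and the largest change, -0.14, was in the first bin, from 12480001 to 12520000, where the largest control-pair difference was 0.018. The last bithorax bin changed by -0.0024. In the Antennapedia complex of H1-KD the largest change was -0.14, in the bin from 2760001 to 2800000, beside a largest control-pair difference of 0.094. In recovered contacts this Antennapedia value was 0.046, of the opposite sign, and the bithorax value -0.036, so the first changed sign and the second was smaller on that scale. The same Antennapedia bin had the largest change in Piwi-KD, 0.092, and Nxf2-KD, 0.096, near the largest control-pair difference, and these were -0.0019 and -0.0033 in recovered contacts. For Egg-KD the largest change in the Antennapedia complex was 0.051, past its largest control pair of 0.036, and for HP1a-KD it was -0.036, within 0.077, but -0.107 in recovered contacts. In the bithorax complex, HP1a-KD changed by -0.056, past its largest control pair of 0.046. The bithorax changes of -0.044 in Piwi-KD, 0.041 in Nxf2-KD and 0.025 in Egg-KD were within theirs.

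The edges of the complexes were examined by an insulation score, the log2 of the mean contact between the 5 bins on each side of a border over the 3R mean of the same windows, where a low score marks a border that few contacts cross. The bithorax complex had scores below the 3R mean at both edges, although 26.6% of 3R borders scored lower than its low edge and 24.5% lower than its high edge by the mean of the Control-KD matrices. At its low edge, on the Ubx side, the score came to -0.42 in Piwi-KD and -0.46 in Control-KD, -0.57 in Nxf2-KD and -0.50 in Control-KD, -0.44 in H1-KD and -0.53 in Egg-KD beside -0.44 in Control-KD, and -0.49 in HP1a-KD beside -0.38 in Control-KD. It was a local minimum in all 9 matrices. One bin further into the complex, the score lay between 0.34 and 0.45 in all KD matrices and between 0.37 and 0.44 in Control-KD matrices. The rise into the complex thus fell within the width of a bin. Below the edge the score stayed under the 3R mean. By the mean of the Control-KD matrices it was -0.32 at 40 kb and -0.55 at 200 kb below, beside -0.44 at the edge. At the high edge, beyond Abd-B, the score lay between -0.47 and -0.35 in KD matrices and between -0.52 and -0.46 in Control-KD matrices, and it was a local minimum in 0 of 9 matrices. The lowest internal border of the bithorax complex lay 1 bin inside this edge, with a mean of -0.52 in Control-KD matrices, and a deeper minimum lay 40 kb outside it, at position 12880000.

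The Antennapedia complex, by contrast, had no border of this kind at its limits. Its low edge, next to lab, had a score of 0.23 in Piwi-KD and 0.16 in Control-KD, 0.084 in Nxf2-KD and 0.0021 in Control-KD, 0.28 in H1-KD and 0.18 in Egg-KD beside 0.15 in Control-KD, and 0.18 in HP1a-KD beside 0.17 in Control-KD. This edge was a local minimum in all 9 matrices, but one at or above the 3R mean. At the high edge, next to Antp, the score lay between 0.16 and 0.48 in KD matrices and between 0.30 and 0.40 in Control-KD matrices. The strong border on this side lay 80 kb beyond the complex, at position 2920000, with scores between -1.08 and -0.70 in KD matrices and between -0.97 and -0.92 in Control-KD matrices. The lowest internal border, at position 2600000, had a mean score of 0.0081 in Control-KD matrices, and differed by 0.042 to 0.10 in the 5 knockdowns, all within the largest control-pair difference of 0.13.

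**Figure D4:**
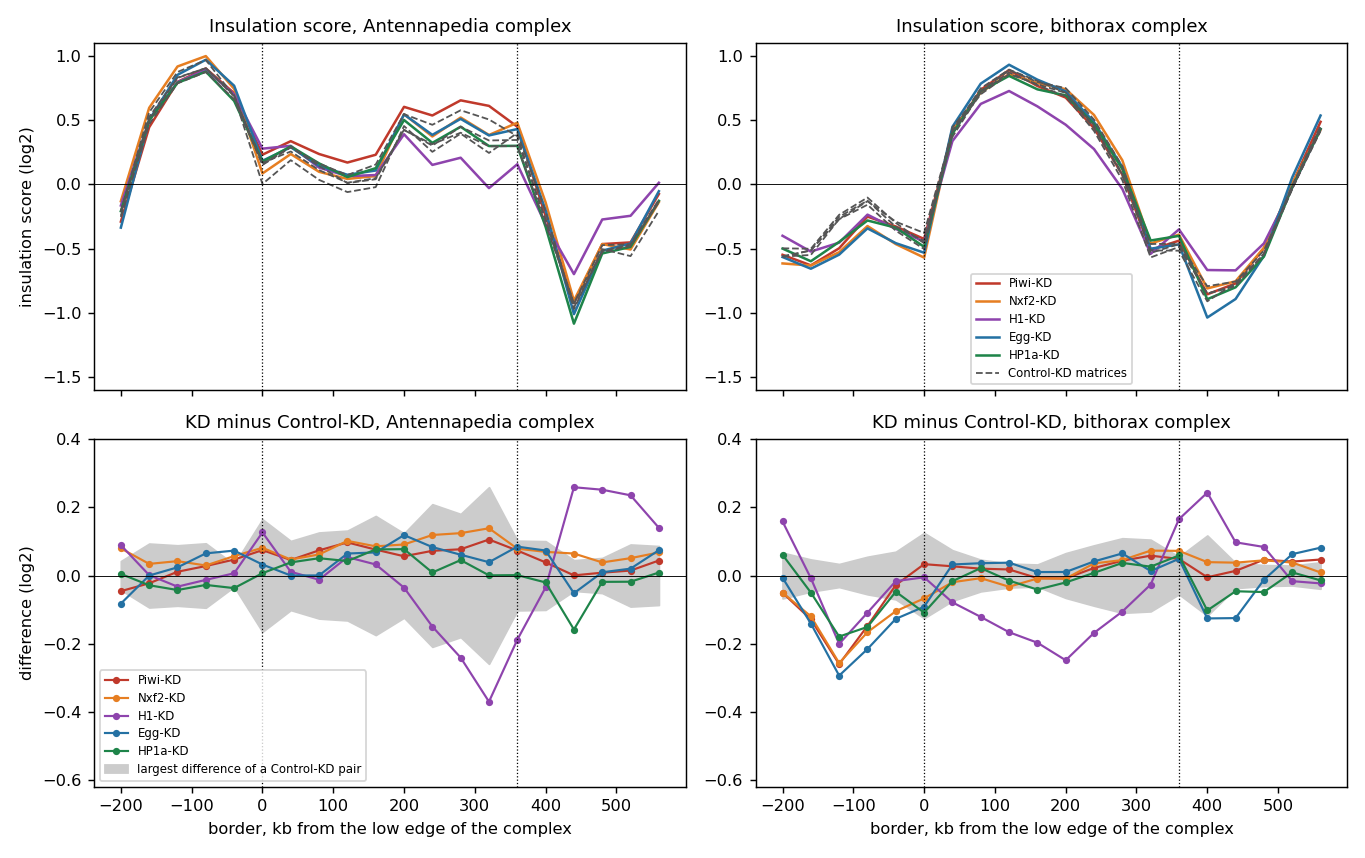
Insulation score (upper) and its difference between each KD and the Control-KD of its series (lower) at borders from 200 kb below to 200 kb above the Antennapedia complex (left) and the bithorax complex (right), with dotted lines at the edges and grey for the largest difference of a Control-KD pair. All 5 KD lines leave the grey band 120 kb below the bithorax complex, where they lie between -0.29 and -0.18, and H1-KD leaves it inside both complexes and at the borders above them.

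With windows of 5 bins, none of the 4 edges differed beyond the largest control-pair difference in all 5 knockdowns. Both low edges then stayed within it in every knockdown. With windows of 10 bins the low bithorax edge gave -0.076 in Nxf2-KD, -0.092 in Egg-KD and -0.104 in HP1a-KD. The largest control pair there was 0.066. With observed over expected values these were -0.105, -0.096 and -0.091 beside 0.073. In recovered contacts HP1a-KD gave -0.139 at this edge, beside 0.126. At the low Antennapedia edge H1-KD gave 0.122 with windows of 10 bins, beside 0.094. At the high edge of the bithorax complex, the score was higher by 0.17 in H1-KD, 0.072 in Nxf2-KD and 0.059 in HP1a-KD, beside a largest control-pair difference of 0.055, and by 0.049 in both Piwi-KD and Egg-KD. With windows of 10 bins the differences were 0.062 in H1-KD, 0.065 in Nxf2-KD and 0.013 in HP1a-KD, all within the largest control pair of 0.071. With windows of 3 bins all 5 knockdowns were higher at this edge, by 0.031 to 0.208, beside a largest control pair of 0.027. In recovered contacts H1-KD, with 0.176, exceeded the largest control pair of 0.111, while Nxf2-KD had 0.073 and HP1a-KD 0.012. At the high edge of the Antennapedia complex, H1-KD was lower by 0.19, with a score of 0.16 in H1-KD and 0.34 in Control-KD, beside a largest control-pair difference of 0.10. In recovered contacts this was -0.089, within the largest control pair of 0.139. With windows of 5 bins the other 4 knockdowns stayed within the range of control pairs. With windows of 10 bins Nxf2-KD gave 0.087 and Egg-KD 0.110, beside a largest control pair of 0.077. With observed over expected values Nxf2-KD gave 0.123 beside 0.114.

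In H1-KD, the contrast between the complexes and the borders above them was smaller. At the strong border 80 kb above the Antennapedia complex, the score was -0.70 in H1-KD and -0.96 in Control-KD, a difference of 0.26 beside a largest control-pair difference of 0.045. At the border 40 kb above the bithorax complex, it was -0.67 in H1-KD and -0.91 in Control-KD, a difference of 0.24 beside 0.12. Inside the bithorax complex, 6 of 8 internal borders had a lower score in H1-KD by more than every control pair, the largest by 0.25 at 200 kb from the low edge, with 0.46 in H1-KD and 0.71 in Control-KD. Inside the Antennapedia complex 2 of 8 did, with -0.030 in H1-KD and 0.34 in Control-KD at 320 kb. The other knockdowns had 0 such lower borders in the Antennapedia complex, and in the bithorax complex HP1a-KD had 1 and the rest 0, while Egg-KD had 1 higher. Over all borders of 3R, the share that differed by more than every control pair, in either direction, was 25.7% in Piwi-KD, 25.7% in Nxf2-KD, 40.4% in Egg-KD, 55.9% in H1-KD and 43.0% in HP1a-KD. Counted in either direction, H1-KD also had 6 of 8 internal borders in the bithorax and 2 of 8 in the Antennapedia complex. The share of 3R borders that were lower alone is not given here. Neighbouring borders also share bins of their windows, so they are not separate observations. The SD of the score over 3R was 0.43 in H1-KD and 0.51 in Control-KD. At the same 2 outer borders, HP1a-KD went the other way at the Antennapedia complex, with -1.08 in HP1a-KD and -0.93 in Control-KD. Egg-KD did so at the bithorax complex, with -1.04 in Egg-KD and -0.91 in Control-KD.

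A lower insulation score shared by all 5 knockdowns lay just below the bithorax complex, on its Ubx side. At the border 120 kb below the low edge, at position 12360000, the insulation score came to -0.50 in Piwi-KD and -0.24 in Control-KD, -0.53 in Nxf2-KD and -0.27 in Control-KD, -0.45 in H1-KD and -0.55 in Egg-KD beside -0.25 in Control-KD, and -0.45 in HP1a-KD beside -0.27 in Control-KD. The KD and Control-KD matrices did not overlap there. This border was picked after its values were seen, and the share of 3R borders without overlap is not given here. The differences were -0.26 in Piwi-KD, -0.26 in Nxf2-KD, -0.29 in Egg-KD, -0.20 in H1-KD and -0.18 in HP1a-KD, while the largest control-pair difference was 0.034. The mean signal across this border came to 521 in Piwi-KD and 628 in Control-KD, from 11864 recovered contacts in Piwi-KD and 13073 in Control-KD. It was 382 in Nxf2-KD and 475 in Control-KD, 183 in H1-KD and 195 in Egg-KD beside 221 in Control-KD, and 234 in HP1a-KD beside 236 in Control-KD. The signal in HP1a-KD was thus near that of Control-KD, and its lower score arose from the division by the 3R mean. Most of the 25 bin pairs across this border have no bin in the complex.

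The next border toward the complex, 80 kb below it, was also lower in all 5 knockdowns by more than every control pair, by 0.15 in Piwi-KD, 0.17 in Nxf2-KD, 0.22 in Egg-KD, 0.11 in H1-KD and 0.15 in HP1a-KD. At 40 kb below, Nxf2-KD and Egg-KD alone passed, and at the edge itself none did with this window. Of 674 borders of 3R, 17 (2.52%) were lower in all 5 knockdowns by more than every control pair and 20 (2.97%) were higher, so borders that move together are not particular to this place. By the mean of the 5 differences, 6 borders of 3R were lower than the one at 12360000. The knockdowns share cells and a common kind of control, and H1-KD and Egg-KD share the same Control-KD matrix, so the 5 differences are not independent. Under other windows, in recovered contacts, in observed over expected values and against each other Control-KD matrix, all 35 values stayed below 0, between -0.33 and -0.093. These settings use the same data from which the border was picked. The bins that lost short-range contacts there were those from 12320001 to 12360000, with changes of -0.13 in Piwi-KD, -0.16 in Nxf2-KD, -0.12 in Egg-KD, -0.081 in H1-KD and -0.11 in HP1a-KD beside a largest control pair of 0.068, and the next bin up to 12400000.

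The complexes lie 10 Mb apart on 3R, from start to start, and contacts between them were compared with the arm mean at that separation. They were at or slightly above it in Control-KD matrices. Over the 81 bin pairs, the mean signal came to 14.2 in Piwi-KD and 14.3 in Control-KD, against arm means of 13.2 in Piwi-KD and 11.7 in Control-KD. Enrichment between the complexes came to 0.10 in Piwi-KD and 0.28 in Control-KD, -0.15 in Nxf2-KD and 0.027 in Control-KD, 0.065 in H1-KD and -0.13 in Egg-KD beside 0.19 in Control-KD, and 0.35 in HP1a-KD beside -0.0071 in Control-KD. The Control-KD matrices thus covered most of the range that the knockdowns did. A single pair of bins held a median of 4 to 10 recovered contacts in a matrix, and the whole block between 307 in Egg-KD and 872 in the Piwi-series Control-KD.

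Among all blocks of 9 by 9 bins of 3R at the same offset, the block of the complexes was not at an extreme. In the Control-KD matrices, 45 of 407 blocks in the Piwi series were higher, 185 of 431 in the Nxf2 series, 105 of 431 in the H1 and Egg series, and 210 of 431 in the HP1a series. In the knockdowns, 108 of 407 blocks were higher in Piwi-KD, 310 of 440 in Nxf2-KD, 163 of 431 in H1-KD, 278 of 431 in Egg-KD and 21 of 422 in HP1a-KD. The share of the 81 pairs above the arm mean ranged from 34.6% in Egg-KD to 59.3% in HP1a-KD among knockdowns and from 48.1% to 64.2% among Control-KD matrices, beside 44.8% to 46.1% of all 3R pairs at these separations.

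**Figure D5:**
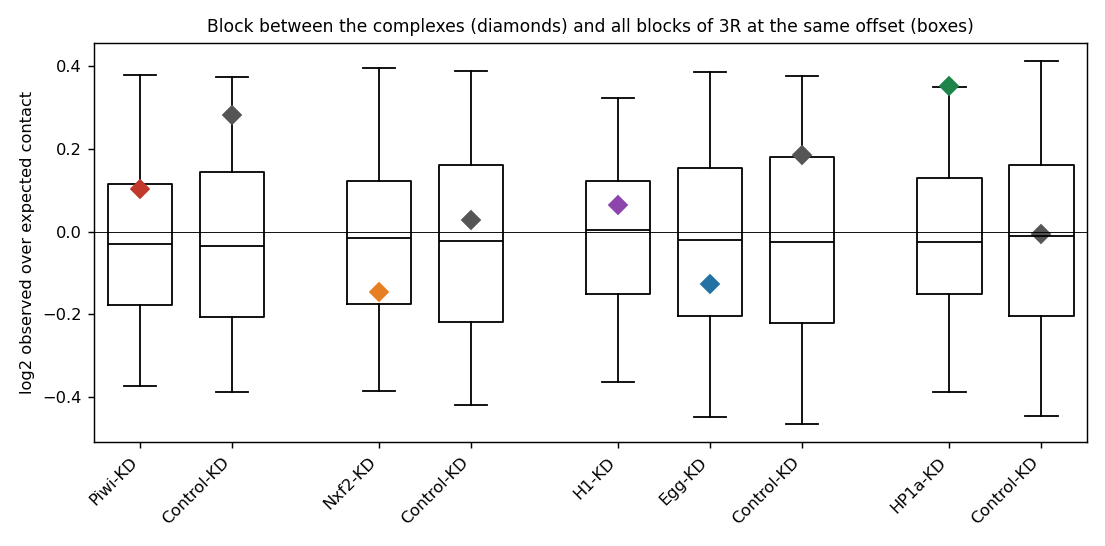
Log2 observed over expected contact of the 81 bin pairs between the complexes (diamonds) in each matrix, with each KD left of its Control-KD, and of all blocks of the same shape and offset along 3R (boxes with median and quartiles, whiskers to the 5th and 95th percentile). The diamonds lie within the whiskers in 8 matrices, and HP1a-KD at 0.35 has 21 of 422 blocks above it.

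Upon knockdown, contact between the complexes relative to the arm differed by -0.18 for Piwi-KD, -0.17 for Nxf2-KD, -0.31 for Egg-KD, -0.12 for H1-KD and 0.36 for HP1a-KD, with counting errors of 0.070, 0.076, 0.11, 0.11 and 0.10. The control-pair spread was 0.19 and the largest control-pair difference 0.29, so Egg-KD and HP1a-KD alone exceeded that largest difference. On deposited values, without the division by the arm mean, the difference of Egg-KD was -0.018 and that of Piwi-KD -0.005. The arm mean at this separation was 5.39 in Egg-KD and 4.40 in Control-KD. However, the whole Egg-KD matrix was on a larger scale, with bin sums of 17788 beside 15579 in Control-KD. With equal within-arm totals the difference was -0.233 for Egg-KD, beside a largest control pair of 0.089, and -0.003 for Piwi-KD. Against the other Control-KD matrices, Egg-KD gave -0.41 to -0.12 and HP1a-KD 0.066 to 0.32. The differences of Piwi-KD, Nxf2-KD and H1-KD were within the largest control pair here but not in every setting. In recovered contacts Piwi-KD gave -0.293 beside a largest control pair of 0.262. With 11 bins per complex Piwi-KD gave -0.198 and Nxf2-KD -0.22 beside 0.191. With equal within-arm totals Nxf2-KD gave -0.091 and H1-KD 0.13, of the opposite sign, beside 0.089. Which knockdowns exceeded the control pairs thus depended on the setting.

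In the mean of the 4 Control-KD matrices, though not in most knockdowns, the Antp end of the Antennapedia complex was the part of 3R that the bithorax complex contacted most for its distance. By that mean, 0 of 640 bins at least 1 Mb away exceeded the bin from 2800001 to 2840000, whose enrichment was 0.45, with 0.21 to 0.71 in single Control-KD matrices. Joined with the next bin up to 2880000, it formed the highest region, with 0.15 in Piwi-KD and 0.63 in Control-KD, 0.026 in Nxf2-KD and 0.26 in Control-KD, 0.30 in H1-KD and 0.033 in Egg-KD beside 0.33 in Control-KD, and 0.88 in HP1a-KD beside 0.39 in Control-KD. These rest on between 75 contacts in Egg-KD and 235 in the Piwi-series Control-KD. The lab end, from 2480001 to 2520000, was below the arm mean in 8 of 9 matrices.

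The next partners of the bithorax complex were the region from 17200001 to 17320000, with 0.61 in Piwi-KD and 0.52 in Control-KD, 0.24 in Nxf2-KD and 0.22 in Control-KD, 0.47 in H1-KD and 0.29 in Egg-KD beside 0.44 in Control-KD, and 0.67 in HP1a-KD beside 0.33 in Control-KD, and the region from 25360001 to 25520000, with a mean of 0.27 in Control-KD matrices. The first of these was above the arm mean in all 9 matrices, and it was higher than the Antp-end region in Piwi-KD, Nxf2-KD, H1-KD and Egg-KD and in the Control-KD that H1-KD and Egg-KD share. The Antennapedia complex contacted the start of the arm most. Its 3 highest regions were 680001 to 720000, 1 to 40000, and 480001 to 560000, with mean enrichments of 0.58, 0.58 and 0.49 in Control-KD matrices. All 3 were above the arm mean in all 9 matrices, with 0.18 to 0.79 in knockdowns and 0.33 to 0.67 in Control-KD matrices. Bithorax bins ranked lower among its partners, and the highest of them, the bin starting at 12760001, was exceeded by 28 of 640 bins.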

How the data were processed

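Hi-C libraries of OSCs were made by the authors with HindIII, mapped to dm3 and binned at 40 kb with HiCExplorer. They summed 2 replicates per group, removed bins of low or high coverage, balanced the matrices by ICE so that bins have equal sums, and brought the matrices compared to a common scale. The values deposited by the authors are therefore a corrected contact signal rather than counts. Samples of other assays were not used.

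Contacts behind the signal were recovered by removing the balancing factors of both bins, and 100% of values under 50 came out within 0.01 of a whole number. Expected contact was the mean of kept 3R pairs at each separation, and comparisons used bins kept in both matrices. No test was possible with 1 merged matrix per group. On simulated data with planted losses, enrichment of unbalanced contacts was checked against the planted value. Enrichment after balancing and insulation were computed there too, but against no set limit. In the naming of distant partners, neighbouring bins within 0.15 of a region's highest bin were joined. Named items are the complexes, their edges, the lowest internal borders, the 3 highest distant regions of each complex, the bin with the largest short-range change for each knockdown, and up to 2 bin pairs with the largest mean rise and fall that went one way in all 5 knockdowns. Other items were named after their values were seen. The members, measures and lists were chosen with earlier results of these data known. Alternatives were deposited values, equal totals, expected values of 5 arms or medians, recovered contacts, other Control-KD matrices, 7 or 11 bins per complex, bins kept in all matrices, other windows, folds and distances. Python 3.11.15, NumPy 2.4.6, pandas 2.3.3 and matplotlib 3.10.9 were used.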

Additional observations from a re-analysis of the deposited data

Results flagged for a closer look

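The insulation score of the low edge of the Antennapedia complex was 0.0021 in the Control-KD matrix of the Nxf2 series and 0.15 to 0.17 in the other 3 Control-KD matrices. The gap of this matrix to its nearest neighbour was 0.897 of the whole range, above Dixon's critical value for 4 values, which chance passes in about 1 of 20 groups. The 4 matrices are Control-KD of separate experiments rather than replicates of one. The Nxf2-KD matrix, at 0.084, was the lowest of the 5 knockdowns at the same edge.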

How the results depend on the processing

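No paired analysis was possible because the authors merged the replicates into 1 matrix per group, and leaving out a replicate could not be run for the same reason. The drop of H1-KD inside the bithorax complex stayed below 0 in 10 of 10 alternatives, between -0.221 and -0.038, and that between its ends in 7 of 7, between -0.351 and -0.189. The measures between these ends and at the border 120 kb below the complex were added after seeing the data. Differences between the complexes changed sign with the setting in Piwi-KD and H1-KD. Of the pairs past the limit in H1-KD, counted in both directions, 10 in the bithorax and 4 in the Antennapedia complex became 17 and 12 at a looser fold limit and 1 and 1 at a limit of 1.5-fold. In the other knockdowns the counts reached at most 8. Between the ends of the bithorax complex 15 of 35 values moved by more than the control-pair spread, and at the border 120 kb below it 21 of 35. The largest short-range changes moved or reversed in 4 of 10 values for the Antennapedia and 2 of 10 for the bithorax complex. The following values are, for contacts inside and between the complexes and for their edges, those that moved by more than that spread, together with the reversed short-range values. Smaller moves, some of which cross 0, are not listed, and the cause was not tested. In contacts recovered before ICE, contacts inside the Antennapedia complex gave -0.054 for Piwi-KD and -0.011 for Nxf2-KD and contacts inside the bithorax complex gave -0.094 for Piwi-KD and -0.038 for H1-KD. Insulation of the high Antennapedia edge there was -0.007 for Piwi-KD, 0.014 for Nxf2-KD and -0.089 for H1-KD and insulation of the high bithorax edge was 0.012 for HP1a-KD. The largest short-range change of an Antennapedia bin there was -0.003 for Nxf2-KD and 0.046 for H1-KD. Against the Nxf2-series Control-KD, contacts inside the Antennapedia complex gave 0.126 for Piwi-KD and contacts inside the bithorax complex gave -0.063 for Piwi-KD and -0.074 for HP1a-KD. Contacts between the complexes there was 0.077 for Piwi-KD and insulation of the low Antennapedia edge was 0.227 for Piwi-KD, 0.180 for Egg-KD, 0.275 for H1-KD and 0.172 for HP1a-KD. Insulation of the high Antennapedia edge there was -0.101 for HP1a-KD and insulation of the low bithorax edge was 0.016 for HP1a-KD. Insulation of the high bithorax edge there was 0.114 for H1-KD and -0.003 for Egg-KD. Against the Control-KD shared by H1-KD and Egg-KD, contacts inside the Antennapedia complex gave 0.090 for Piwi-KD and contacts between the complexes gave 0.165 for HP1a-KD. Insulation of the low Antennapedia edge there was -0.067 for Nxf2-KD and insulation of the high bithorax edge was 0.124 for Nxf2-KD and 0.114 for HP1a-KD. Against the HP1a-series Control-KD, contacts between the complexes gave 0.111 for Piwi-KD, 0.072 for H1-KD and -0.118 for Egg-KD and contacts inside the bithorax complex gave 0.056 for Nxf2-KD. Insulation of the low Antennapedia edge there was -0.084 for Nxf2-KD and insulation of the high Antennapedia edge was 0.15 for Piwi-KD and 0.181 for Nxf2-KD. Insulation of the low bithorax edge there was -0.048 for Piwi-KD and -0.192 for Nxf2-KD and insulation of the high bithorax edge was 0.110 for H1-KD and -0.006 for Egg-KD. Against the Piwi-series Control-KD, contacts inside the Antennapedia complex gave -0.022 for Nxf2-KD, -0.104 for H1-KD and -0.024 for Egg-KD and contacts inside the bithorax complex gave 0.064 for Nxf2-KD. Contacts between the complexes there was -0.429 for Nxf2-KD and 0.066 for HP1a-KD and insulation of the low Antennapedia edge was -0.071 for Nxf2-KD. Insulation of the high Antennapedia edge there was -0.075 for HP1a-KD and insulation of the low bithorax edge was -0.028 for HP1a-KD. On deposited values, contacts inside the bithorax complex gave -0.026 for Nxf2-KD, 0.219 for Egg-KD, -0.221 for H1-KD and 0.214 for HP1a-KD and contacts inside the Antennapedia complex gave 0.240 for Egg-KD, -0.159 for H1-KD and 0.252 for HP1a-KD. Contacts between the complexes there was 0.129 for H1-KD and -0.018 for Egg-KD. With equal within-arm totals, contacts inside the bithorax complex gave -0.027 for Nxf2-KD, -0.221 for H1-KD and 0.123 for HP1a-KD and contacts inside the Antennapedia complex gave -0.158 for H1-KD and 0.161 for HP1a-KD. Contacts between the complexes there was 0.130 for H1-KD and 0.165 for HP1a-KD. With 7 bins per complex, contacts inside the Antennapedia complex gave 0.007 for H1-KD. With a window of 3 bins, insulation of the high bithorax edge gave 0.208 for H1-KD. With a window of 10 bins, insulation of the high bithorax edge gave 0.008 for Egg-KD, 0.062 for H1-KD and 0.013 for HP1a-KD. With observed over expected values in the window, insulation of the high bithorax edge gave 0.010 for Egg-KD and -0.009 for HP1a-KD.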
